A study of Rattus norvegicus with 3 samples.

Results

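The nuclei described here were cardiomyocyte nuclei of the rat heart that held little transcript of the 2 natriuretic peptide genes, Nppa and Nppb. A nucleus was counted as a cardiomyocyte nucleus when 10 cardiomyocyte genes (Tnnt2, Actn2, Mybpc3, Tnni3, Myl2, Pln, Rbm20, Cmya5, Mlip and Ldb3) together made up at least 1% of its unique molecular identifiers (UMIs, each standing for 1 captured transcript molecule), when Dcn, Pdgfra, Flt1 and Ptprb together had at most 2 UMIs, and when it held at least 2000 UMIs. It was called low-natriuretic when Nppa and Nppb together were under 0.05% of its UMIs, and natriuretic-rich otherwise. Of 24664 nuclei in the 3 libraries, 3792 passed the cardiomyocyte limits and 1728 of these were low-natriuretic, 1116 (WT), 371 (BMD) and 241 (DMD). The other 2064 were natriuretic-rich, 436 (WT), 986 (BMD) and 642 (DMD).

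Nuclei came from the apex of the heart, with parts of the septum and of both ventricles, of Sprague Dawley rats at 12 months of age, and were sorted on a DNA stain. WT was the wild-type genotype, BMD rats carried an in-frame deletion of several exons of Dmd made by CRISPR/Cas9 to model Becker muscular dystrophy, and DMD rats carried a deletion of Dmd that models Duchenne muscular dystrophy. Both deletions are in the germline, so that every cell of a mutant animal carried them, and no group received a treatment. There was 1 library per genotype, from a number of rats not given in the sources used here, and no replicate, so all intervals given are at 95%, cover counting error only and leave out the variation between animals, and no p-value was computed. The libraries held 21609238 UMIs (WT), 21142346 (BMD) and 19215994 (DMD). A barcode sequence was shared by 20 nuclei of WT and BMD, 12 of WT and DMD and 12 of BMD and DMD.

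Natriuretic peptides are hormones that the heart releases when its wall is stretched, and that act on the kidney and on blood vessels to lower volume and pressure. Nppa encodes atrial and Nppb B-type natriuretic peptide. In the adult ventricle their transcripts are scarce at rest and come back under load, along with other genes of the fetal heart such as the skeletal actin Acta1 and the slow myosin Myh7. Dystrophin, the product of Dmd, ties the actin under the membrane of muscle cells to the matrix outside them.

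The promoters of 4 genes are shown, since the share of Nppa and Nppb chose the nuclei and since Acta1 and Ccn2, which encodes a secreted matrix-associated growth regulator, led the genes that were higher in both mutant libraries among nuclei with little of either peptide transcript. Each run gives 250 bases before and 50 bases after the annotated start of the gene, from RefSeq on GRCr8, a newer build than the rn6 of the counts. Capitals mark CATTCC on either strand, the core of the M-CAT element bound by TEAD factors, and the CArG box bound by serum response factor.
Nppa, chr5:163711934-163712233, plus strand: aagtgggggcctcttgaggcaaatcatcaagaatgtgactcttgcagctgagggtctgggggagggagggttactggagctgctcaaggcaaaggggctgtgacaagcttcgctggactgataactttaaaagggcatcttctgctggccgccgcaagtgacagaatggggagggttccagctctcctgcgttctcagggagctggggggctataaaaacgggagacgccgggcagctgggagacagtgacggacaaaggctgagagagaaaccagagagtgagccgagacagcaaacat
Nppb, chr5:163699758-163700057, plus strand: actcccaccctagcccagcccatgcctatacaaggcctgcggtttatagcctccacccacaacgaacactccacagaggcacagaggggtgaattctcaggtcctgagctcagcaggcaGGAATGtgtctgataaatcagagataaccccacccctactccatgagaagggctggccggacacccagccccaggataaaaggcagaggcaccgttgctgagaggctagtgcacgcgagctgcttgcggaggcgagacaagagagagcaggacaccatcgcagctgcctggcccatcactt
Acta1, chr19:68784145-68784444, minus strand: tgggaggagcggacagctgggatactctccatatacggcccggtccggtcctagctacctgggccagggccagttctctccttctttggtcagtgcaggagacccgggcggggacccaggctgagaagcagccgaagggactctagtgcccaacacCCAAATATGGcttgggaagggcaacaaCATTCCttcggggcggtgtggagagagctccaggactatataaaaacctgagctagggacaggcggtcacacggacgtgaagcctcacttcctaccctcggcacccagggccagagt
Ccn2, chr1:22624565-22624864, minus strand: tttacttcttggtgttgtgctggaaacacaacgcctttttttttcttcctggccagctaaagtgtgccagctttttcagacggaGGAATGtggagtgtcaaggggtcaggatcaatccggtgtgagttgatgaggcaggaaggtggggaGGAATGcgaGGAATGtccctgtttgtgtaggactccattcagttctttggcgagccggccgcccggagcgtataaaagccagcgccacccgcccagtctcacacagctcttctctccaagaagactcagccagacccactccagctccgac
CATTCC on either strand was in 14.2% of all 33469 promoters of this length and a CArG box in 1.64%. The Ccn2 window held CATTCC at 3 places, starting at -166, -101 and -92 from the start of the gene. The Acta1 window held it at -67 with a CArG box at -94, the Nppb window held it at -131, and the Nppa window held neither string of letters. Of the 13 genes of the stress list described below that were higher in both mutant libraries, 10 had a promoter in the table, 5 of them with CATTCC and 2 with a CArG box. These matches describe letters in a window and were not tested as binding sites.

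The share of cardiomyocyte nuclei that were low-natriuretic was 71.9% in WT (1116 of 1552, Clopper-Pearson interval 69.6 to 74.1), 27.3% in BMD (371 of 1357, 25.0 to 29.8) and 27.3% in DMD (241 of 883, 24.4 to 30.4). The WT interval lay above both others, and the BMD and DMD intervals overlapped over nearly their whole length. Free RNA, measured in barcodes too poor in UMIs to be nuclei, held far more of both transcripts in the mutants, with Nppa at 151, 1308 and 893 counts per 1000000 UMIs in WT, BMD and DMD and Nppb at 283, 1503 and 1020. The part of free RNA in the shares was not tested. The natriuretic share selected on here was 0 in 780 of the WT, 184 of the BMD and 120 of the DMD low-natriuretic nuclei. A further 259, 125 and 87 nuclei held 1 UMI of either gene, and the highest count was 3 UMIs (WT), 9 (BMD) and 3 (DMD). Near the limit, 79 WT, 49 BMD and 40 DMD nuclei lay between 0.04% and 0.05%, and 44, 46 and 36 lay between 0.05% and 0.06% on the natriuretic-rich side.

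The limit depends on depth, because 1 UMI of Nppa or Nppb already reaches 0.05% in a nucleus of 2000 UMIs. In nuclei of 2000 to under 3000 UMIs the low-natriuretic share was 76.9% (WT), 34.2% (BMD) and 30.4% (DMD). In nuclei of at least 5000 UMIs it was 67.7%, 22.9% and 23.7%. WT thus stood above the mutant libraries at each depth. After every nucleus was thinned to 2000 UMIs the shares were 60.4%, 22.1% and 21.0%.

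**Figure D1:**
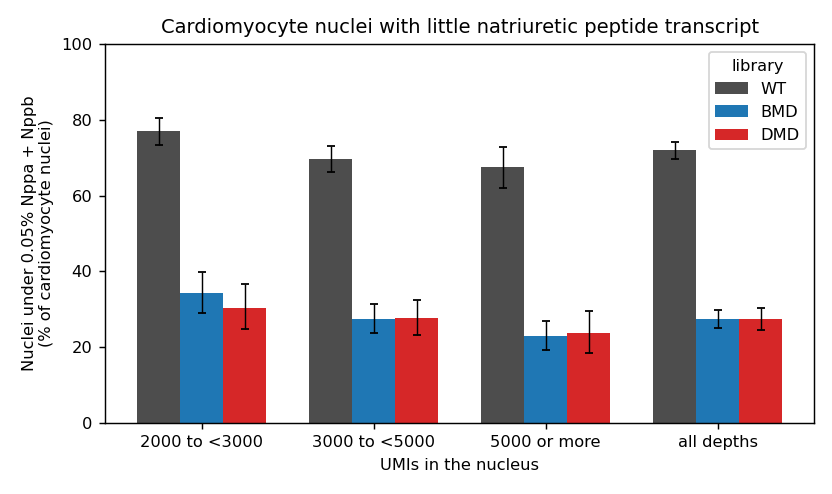
Share of cardiomyocyte nuclei with under 0.05% Nppa and Nppb UMIs (vertical axis, percent) by UMIs in the nucleus (horizontal axis) in the WT, BMD and DMD libraries, with 95% Clopper-Pearson intervals as bars. WT stood at 71.9% over all depths against 27.3% in BMD and in DMD, and was the highest library in every depth class.

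The low-natriuretic nuclei carried the RNA of ventricular cardiomyocytes. Tnnt2, cardiac troponin T, had 3386 (WT), 3688 (BMD) and 3634 (DMD) counts per 1000000 UMIs (CPM), and Rbm20, a splicing regulator of heart muscle, had 6666, 7064 and 6935. Actn2, the Z-disc actinin, had 1284, 1338 and 1382 CPM, and Mybpc3, cardiac myosin-binding protein C, had 1638, 2020 and 2101. All 4 are genes of the selection, so these levels describe the nuclei and test nothing. Of 6 atrial markers, Kcna5 and Bmp10 were at 0 UMIs in each library, Sln at 0 in WT and BMD, and all 6 summed to 4.44 CPM (WT), 11.2 (BMD) and 15.8 (DMD), led by Stard10 in WT (2.57 CPM) and by Myl4 in the mutants (9.45 and 11.9 CPM).

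Transcripts of other cell types were low and unequal between libraries, where the selection itself limited Dcn, Pdgfra, Flt1 and Ptprb. The 5 fibroblast genes measured summed to 85.1 CPM (WT), 93.3 (BMD) and 217 (DMD), most of it Col3a1 (46.3, 64.4 and 150.1 CPM). The endothelial genes summed to 37.2, 36.0 and 49.4 CPM and the macrophage genes to 77.2, 88.0 and 116 CPM. DMD was the highest library for each of these 3 lists, and the part of such RNA in the gene differences below was not tested. The list of pericyte and smooth muscle markers reached 997 CPM in WT, 1007 in BMD and 677 in DMD, with DMD the lowest library. Most of this was Abcc9 (945, 949 and 608 CPM), a subunit of ATP-sensitive potassium channels that cardiomyocytes also express. The conduction list was at 155, 142 and 135 CPM.

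Depth, mitochondrial RNA and free RNA were set beside the selection. The median nucleus held 3374.5 UMIs (WT), 4038 (BMD) and 3786 (DMD), with 1219, 1183 and 1191 genes after thinning to 2000 UMIs. The median mitochondrial share was 0.130% (WT), 0.242% (BMD) and 0.329% (DMD), in the same order as the estimated share of free RNA, 4.86%, 6.15% and 6.67%. This estimate took all UMIs of other cell types' marker genes as free RNA, so it can be too high. The WT library had 7 low-natriuretic nuclei over 5% mitochondrial UMIs, the highest at 56.4% and 40.9%, against 1 in BMD and 2 in DMD. Detection of Nppa and Nppb in these nuclei was limited by the selection and is given as a description. After thinning to 500 UMIs, 0.627% of WT, 1.89% of BMD and 3.32% of DMD low-natriuretic nuclei had an Nppa UMI (median depths before thinning as above), against 0.430%, 3.76% and 3.13% of endothelial nuclei, which should lack it and had median depths of 809, 1163 and 1004 UMIs. Nppb was found in 4.84%, 6.47% and 6.64% of low-natriuretic nuclei and in 0.716%, 1.61% and 2.74% of endothelial nuclei. Free RNA was also subtracted at the estimated share, which can remove too much. The log2 ratio of Nppb over WT then changed from 0.56 to -0.94 in BMD and from 0.45 to -0.47 in DMD. The nuclei were selected on this transcript.

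Dmd was measured first among the other genes, as the gene that differs between the genotypes. In low-natriuretic nuclei it had 16171 CPM (WT), 20492 (BMD) and 18923 (DMD). Reads at the 3′ end or in introns outside the deletions count for a deleted gene too, so this level does not check the labels. Ryr2, the calcium release channel of the sarcoplasmic reticulum, had 15770, 16097 and 13913 CPM, and Gja1, the gap junction protein connexin 43, had 725, 698 and 710.0 CPM. Against WT, the log2 ratio of Gja1 was -0.06 for BMD (-0.15 to 0.04) and -0.03 for DMD (-0.15 to 0.09), within counting error of no difference.

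The first comparison asked how low-natriuretic nuclei of the mutant libraries differed from those of WT, in genes that played no part in their selection. UMIs were summed over the nuclei, 4276512 (WT), 1693127 (BMD) and 1012611 (DMD), and 5029 genes with at least 200 UMIs over the 3 sums were compared. A gene was counted when its ratio of CPM, with 5 CPM added to each side, was at least 1.5-fold. In BMD over WT, 3.54% of the genes were higher and 5.51% lower by this count. In DMD over WT, 4.95% were higher and 8.39% lower. Higher in both mutant libraries were 101 genes (2.01%) and lower in both 120 genes (2.39%), and these 2 comparisons share the WT library.

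The 10 genes highest in both mutants, ranked by the ratio nearer 0, began with Acta1 and Ccn2. Acta1 had 18.7 CPM in WT (80 UMIs), 165 in BMD (279 UMIs) and 198 in DMD (200 UMIs). WT was the low library, with an interval of its level far under the other 2, which overlapped. Against WT, the log2 ratio of Acta1 was 3.14 for BMD (2.78 to 3.52) and 3.40 for DMD (3.02 to 3.79). An Acta1 UMI was found in 4.21% of WT, 31.0% of BMD and 35.7% of DMD low-natriuretic nuclei. After thinning to 500 UMIs these shares were 0.806%, 8.89% and 7.47%, against 0.287%, 1.79% and 1.31% of endothelial nuclei, so that the mutant intervals lay above the endothelial ones while the WT interval (0.369 to 1.53%) overlapped its own. With the estimated free RNA subtracted, the log2 ratios of Acta1 were 3.08 and 3.45.

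Ccn2 had 51.0 CPM (WT), 290.0 (BMD) and 341 (DMD), and again WT alone was low. This gave log2 ratios over WT of 2.51 for BMD (2.28 to 2.74) and 2.74 for DMD (2.49 to 2.99). Tgfb2, a ligand of the transforming growth factor β receptors, had 86.3, 418 and 357 CPM, at log2 ratios of 2.27 (2.09 to 2.46) and 2.05 (1.84 to 2.26). In each of the 3 libraries the UMIs of Tgfb2 were unevenly spread over nuclei. The 5 highest nuclei held 77 of 369 UMIs in WT, 124 of 707 in BMD and 108 of 362 in DMD. Hspb1, a small heat shock protein, had 45.4, 304 and 143 CPM, and Gadd45g, a growth arrest and DNA damage response gene, had 41.2, 226 and 132. For both of these BMD was the highest library and WT the lowest.

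Txnip and Pdk4 were also among the 10 highest. Txnip, which curbs glucose uptake, had 86.1 CPM (WT), 537 (BMD) and 466 (DMD), at log2 ratios of 2.64 (2.47 to 2.82) and 2.44 (2.24 to 2.64). Its level in free RNA was high in every library, 740.0, 883 and 1136 CPM, and after subtraction of free RNA its ratios were 3.29 and 2.99. Pdk4, the kinase that switches off pyruvate dehydrogenase, had 14.3, 195 and 61.2 CPM. BMD was thus the highest library for Pdk4, with DMD between it and WT. The other genes among the 10 highest were Rbms3, an RNA-binding protein, at 142, 791 and 492 CPM, Dgkb, a diacylglycerol kinase, at 186, 593 and 1095 CPM, and Setd7, a lysine methyltransferase, at 16.6, 62.0 and 76.0 CPM. Dgkb and Setd7 were highest in DMD and Rbms3 in BMD.

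Among the 10 lowest, Dhrs7c, a short-chain dehydrogenase of the sarcoplasmic reticulum, had 106 CPM (WT), 28.3 (BMD) and 34.6 (DMD). Against WT, BMD had a log2 ratio of -1.90 (-2.36 to -1.47) and DMD one of -1.61 (-2.15 to -1.12). Gpr63, an orphan receptor, had 93.5, 25.4 and 17.8 CPM, with ratios of -1.88 (-2.37 to -1.42) and -2.40 (-3.17 to -1.72). WT was high for both, and the 2 mutant libraries overlapped. Grid1, a glutamate receptor subunit, had 62.4, 16.5 and 19.7 CPM, Syt7, a calcium sensor of exocytosis, had 105, 41.9 and 44.4, and Bcl6, a transcriptional repressor, had 43.3, 16.5 and 10.9. Cog2 and Golm1, which encode Golgi proteins, had 113, 45.5 and 28.6 CPM and 59.6, 21.8 and 19.7 CPM. The list was completed by the unnamed locus RGD1560034 (74.4, 24.2 and 24.7 CPM).

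Fth1, the ferritin heavy chain, and Rpl35, a ribosomal protein, had the lowest BMD ratios of the 10 and were abundant in free RNA. Fth1 had 150 CPM (WT), 19.5 (BMD) and 34.6 (DMD), against 992, 429 and 1101 CPM in free RNA. Subtraction of free RNA left nothing of Fth1 in the mutants. Rpl35 had 72.3, 6.50 and 23.7 CPM against 415, 151 and 262 CPM in free RNA. Both genes belong to families with many pseudogenes, so their counts are uncertain, and the part of this in the ratios was not tested. WT counts came from a file made with another Cell Ranger version than the separate BMD and DMD files. The version that counted the WT library itself was not shown. That file held 76.1% of the BMD and 92.9% of the DMD UMIs, so its counts of these libraries were also shallower. With all 3 libraries taken from that file, which was itself put together from them, the log2 ratios were -3.02 and -2.29 for Fth1 and -3.44 and -1.62 for Rpl35, against -2.94, -2.11, -3.48 and -1.61 as first computed.

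For Acta1, Ccn2, Tgfb2, Txnip and Dhrs7c, levels in natriuretic-rich nuclei of both mutants differed from WT in the same direction as in low-natriuretic nuclei. Among these genes, the order of BMD and DMD turned for Acta1, Ccn2 and Dhrs7c in natriuretic-rich nuclei. Other genes named above are not covered by this statement. Acta1 had 56.3 CPM (WT), 252 (BMD) and 241 (DMD) there, with log2 ratios over WT of 2.16 (1.87 to 2.47) and 2.10 (1.79 to 2.41), below those of the low-natriuretic nuclei. Ccn2 had 144, 539 and 466 CPM, Tgfb2 had 230.2, 742 and 599 CPM, and Txnip had 130, 477 and 401 CPM. For Acta1, Ccn2 and Tgfb2 the low-natriuretic nuclei of the mutants thus had higher levels than the natriuretic-rich nuclei of WT. Dhrs7c had 51.8, 21.3 and 19.8 CPM in natriuretic-rich nuclei, so that its WT level was lower there than in low-natriuretic nuclei. Whether the difference between genotypes itself differs between the 2 kinds of nuclei cannot be tested with 1 library each.

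**Figure D2:**
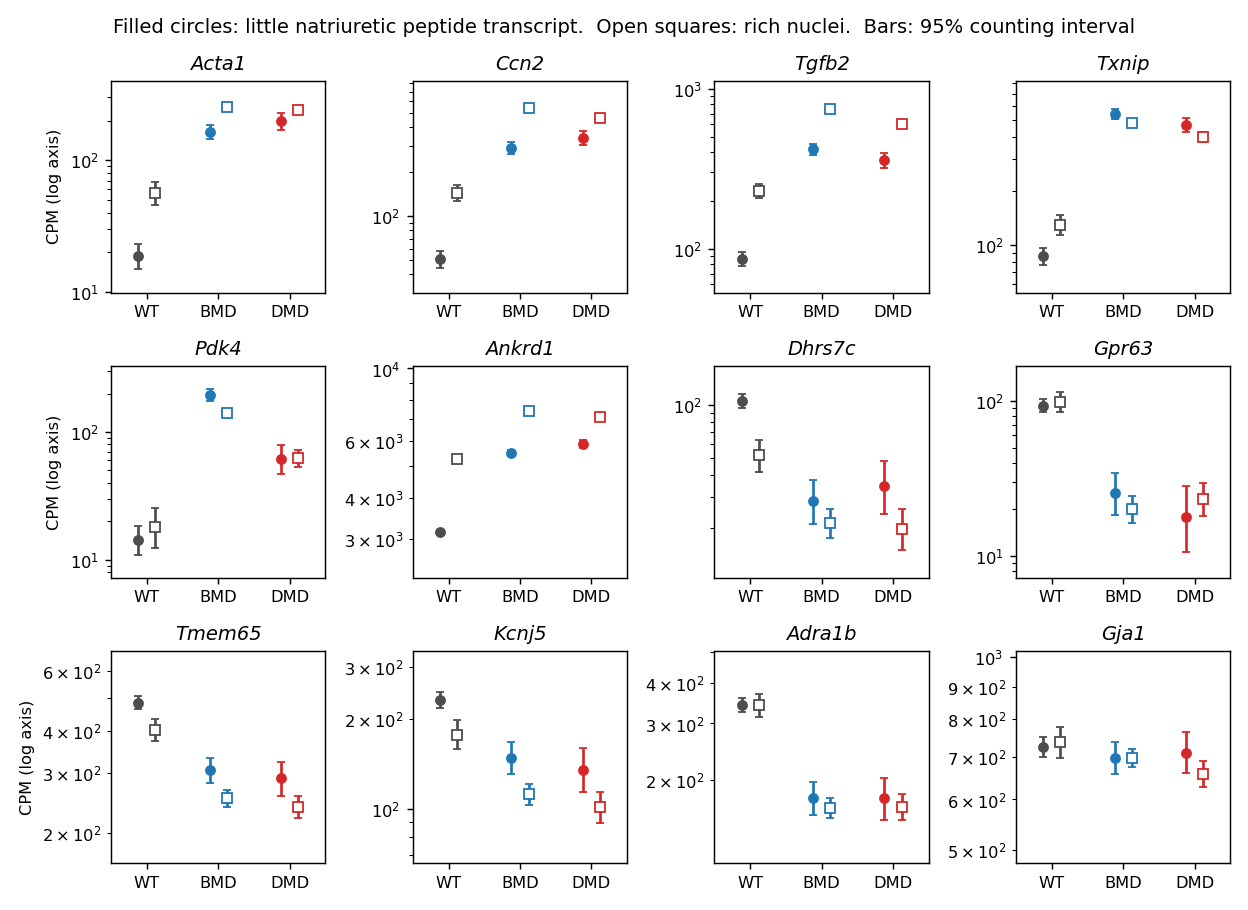
Level of 12 genes (vertical axis, CPM, log scale) in the WT, BMD and DMD libraries (horizontal axis), in low-natriuretic nuclei (filled circles) and natriuretic-rich nuclei (open squares), with 95% Poisson intervals. Acta1 in low-natriuretic nuclei went from 18.7 CPM (WT) to 165 (BMD) and 198 (DMD), Adra1b from 342 to 176 and 176, and Gja1 stayed between 698 and 725.

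Gene lists placed these genes among their partners. The lists were chosen with earlier results of these data known, so a list's count is read only beside the background of all 5029 genes, whose median log2 ratio was -0.07 in BMD and -0.06 in DMD over WT. The list of cell stress and fetal genes had 24 of 30 members measured and a median log2 ratio of 0.75 in BMD and 0.84 in DMD. Of the 24, 13 were higher by 1.5-fold in both mutant libraries and 0 were lower in both, against 2.01% and 2.39% of all genes. They were Acta1, Ccn2, Tgfb2, Hspb1, Ccn1, Ankrd1, Xirp2, Flnc, Actc1, Cryab, Rtn4, Enah and Rcan1. Ankrd1, a titin-associated repeat protein that shuttles to the nucleus, had 3144, 5513 and 5858 CPM, and Xirp2, a protein of the intercalated disc, had 681, 2054 and 1177. Fhl2, a LIM protein of the Z-disc with 3218, 2700 and 2973 CPM, was a member that was not higher in the mutants. The myosins of the list stayed within 1.5-fold. Myh7, slow β-myosin, had 1566, 2311 and 2163 CPM, and Myh6, fast α-myosin, had 2716, 1861 and 3009. Myh6 was lowest in BMD (log2 ratio -0.55, -0.60 to -0.49) and highest in DMD (0.15, 0.09 to 0.21).

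The contractile and Z-disc list had 27 genes measured, with medians of 0.24 in BMD and 0.32 in DMD, and 4 higher in both (2.01% of all genes). These were Actc1, cardiac actin, at 504, 1101 and 1256 CPM, Flnc, filamin C, at 71.8, 177 and 137, Pdlim5, a Z-disc scaffold, at 1978, 3532 and 4963, and Myl3, a myosin light chain, at 624, 1025 and 1006. WT was the lowest library for all 4. Fhod3, a formin that assembles actin, and Tpm1, tropomyosin, had the most UMIs of the list and stayed within 1.5-fold, at 5102, 4796 and 5221 CPM and at 3457, 3957 and 3896.

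Of 18 potassium, sodium and pacemaker channel genes measured, 3 were lower in both mutant libraries (2.39% of all genes) and 0 higher in both (2.01%), with medians of -0.12 in BMD and -0.39 in DMD. Kcnj5, a subunit of the acetylcholine-gated potassium channel, had 232, 148 and 135 CPM, Kcnj12, an inward rectifier, had 69.2, 28.9 and 34.6, and Scn4b, a β-subunit of sodium channels, had 40.9, 22.4 and 14.8. WT was the highest library for each. Kcnq1, a delayed rectifier, had the most UMIs and differed less (2908, 2774 and 2301 CPM). Of 22 calcium handling genes, with medians of 0.11 in BMD and 0.09 in DMD, Dhrs7c alone passed in both mutants, 1 gene against the 2.39% of all genes that were lower in both. Jph2, which holds the sarcoplasmic reticulum to the T-tubule, had 409, 609 and 643 CPM, and Trpm4, a calcium-activated cation channel, had 66.4, 45.5 and 28.6, while Slc8a1, the sodium-calcium exchanger, had 6328, 6967 and 6834.

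**Figure D3:**
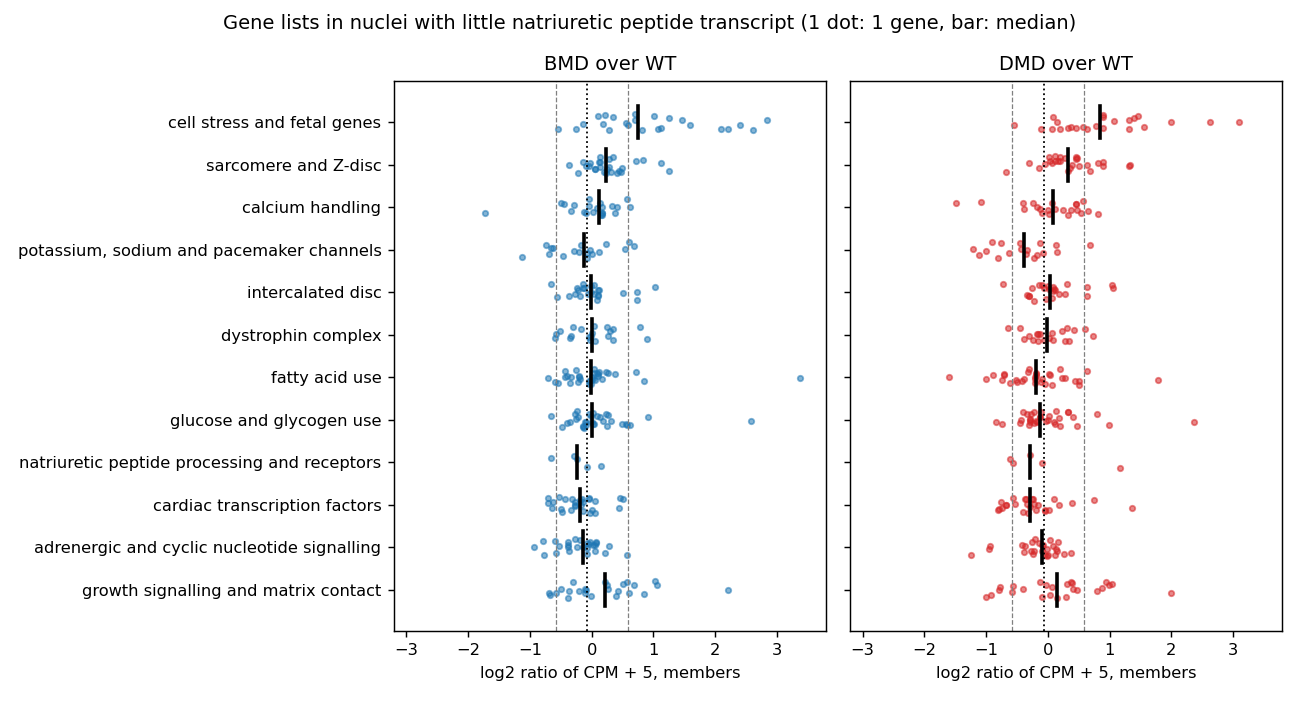
Log2 ratio over WT (horizontal axis, CPM plus 5) of the measured genes of 12 lists (rows) in low-natriuretic nuclei of BMD and DMD, with a bar at each list's median, a dotted line at the median of all genes and dashed lines at 1.5-fold. The median of the cell stress and fetal list was 0.75 in BMD and 0.84 in DMD, and the channel list lay at -0.12 and -0.39.

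At the intercalated disc, the junction between neighbouring cardiomyocytes, the median of 24 genes was -0.01 in BMD and 0.04 in DMD, close to that of all genes. Tmem65, a membrane protein of the disc, was the 1 member lower in both mutants (2.39% of all genes), at 484 CPM (WT), 305 (BMD) and 289 (DMD). This gave log2 ratios over WT of -0.66 for BMD (-0.81 to -0.52) and -0.74 for DMD (-0.92 to -0.56), and in natriuretic-rich nuclei they were -0.66 and -0.75. A Tmem65 UMI was found in 75.5%, 63.3% and 61.8% of low-natriuretic nuclei, and after thinning to 500 UMIs in 21.0%, 14.0% and 11.6%, with 9.74%, 8.96% and 9.66% in endothelial nuclei, so that the BMD (10.6 to 18.0%) and DMD (7.86 to 16.4%) intervals reached the endothelial ones (6.72 to 11.6% and 7.66 to 12.0%). Fibroblast nuclei had a Tmem65 UMI in 15.3%, 12.6% and 11.2%, above the endothelial interval in WT (13.6 to 17.0% against 7.64 to 12.2%) and overlapping it in both mutants. The fibroblast interval of DMD (9.54 to 13.1%) lay below that of WT, so that detection was lower in DMD in these nuclei too. Sorbs2, a scaffold of the disc, had 3402, 5642 and 7075 CPM, Itgb1, the β1 integrin, had 207, 426 and 431, and Itgb1bp2, a muscle partner of β1 integrin, had 106, 180.1 and 168. These 3 were higher in both mutants (2.01% of all genes).

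Among 20 genes of the dystrophin complex, 1 was higher in both mutants and 0 lower, against 2.01% and 2.39% of all genes. Sntb1, β1-syntrophin, had 657 CPM (WT), 1137 (BMD) and 1098 (DMD). Dtna, α-dystrobrevin, had 634, 809 and 852 CPM, Sgcb, β-sarcoglycan, had 89.1, 57.9 and 67.1, and Lama2, the laminin chain that the complex binds, had 3652, 4388 and 4550. The median of the list was 0.00 in BMD and -0.02 in DMD. Of 25 genes of growth signalling and matrix contact, 5 were higher in both mutants (2.01% of all genes) and 1, Fgfr1, was lower (2.39%), with medians of 0.22 in BMD and 0.16 in DMD. The 5 were Tgfb2, Itgb1, Itga9, an integrin subunit at 789, 1645 and 1526 CPM, and the basement membrane collagens Col4a1 (121, 222 and 214 CPM) and Col4a2. The part in these collagens of RNA from other cells, whose Col3a1 was highest in DMD, was not tested.

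In fatty acid use, 33 genes had a median of -0.01 in BMD and -0.20 in DMD, and those that passed in both mutants split 2 higher and 2 lower, against 2.01% and 2.39% of all genes. Pdk4 and Cpt1b, the muscle form of the mitochondrial carnitine transferase, were higher, the latter at 83.7, 141 and 132 CPM. Cpt1a, the liver form of the same enzyme, was lower at 141, 84.5 and 84.9 CPM, and so was Decr1, which acts on unsaturated fatty acids, at 43.5, 27.2 and 24.7 CPM. The 2 forms of the transferase thus went opposite ways in each mutant. In glucose and glycogen use, Txnip alone of 33 genes passed in both, being higher (2.01% of all genes), and the medians were 0.00 and -0.12. Igf1r, the receptor of insulin-like growth factor, had 229, 344 and 458 CPM, Gyg1, glycogenin, 117, 166 and 207, and Pfkm, muscle phosphofructokinase, 143, 111 and 105.

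Against 2.01% higher and 2.39% lower in both among all genes, the lists of regulators and receptors held 1 passing gene or none. Of 27 cardiac transcription factors, Klf15, a factor of metabolic genes, was lower in both mutants at 90.5, 53.7 and 50.4 CPM, and 0 were higher in both (medians -0.19 and -0.29). Tbx20 had 515, 731 and 864 CPM, Meis1 had 306, 214 and 205, Rxrg had 63.6, 39.6 and 42.5, and Myocd, the coactivator of serum response factor, had 2019, 1827 and 1254. Of 27 genes of adrenergic and cyclic nucleotide signalling, Adra1b, an α1-adrenergic receptor, was the 1 that was lower in both (medians -0.14 and -0.09), at 342 CPM (WT), 176 (BMD) and 176 (DMD). Its log2 ratio was -0.96 in each, with intervals of -1.14 to -0.78 and -1.19 to -0.73. Adcy6, an adenylyl cyclase, had 134, 86.8 and 98.7 CPM, and Pde4a, a cyclic AMP phosphodiesterase, had 91.4, 62.0 and 35.5. The list of natriuretic peptide processing and receptors also held Osbpl6, a lipid-binding protein, and Pde2a, a phosphodiesterase. Of its 5 measured genes, 0 passed in both and the medians were -0.24 and -0.29. Corin, the protease that activates the Nppa product, had 1839, 1755 and 1713 CPM, and Npr3, the clearance receptor, had 95.4, 107 and 221, with DMD alone high.

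The second comparison set the 2 mutant libraries against each other. With DMD set over BMD, 3.58% of the 5029 genes were at least 1.5-fold higher and 3.78% lower. Camk1d, a calcium/calmodulin-dependent kinase, had 15.4 CPM (WT), 18.3 (BMD) and 110 (DMD), and Pde11a, a phosphodiesterase, had 23.4, 28.9 and 92.8, so that DMD alone was high. Ap1s3 (33.4, 14.8 and 84.9 CPM), Galnt7 (38.6, 10.0 and 42.5) and Iqca (42.8, 19.5 and 65.2) were lowest in BMD. C7, a complement component made by fibroblasts, had 18.5, 24.2 and 88.9 CPM, but 47 of its 90 DMD UMIs came from 1 nucleus, and without it DMD had 42.5 CPM. In the other direction, Pros1, the anticoagulant protein S, had 39.5, 190 and 23.7 CPM, so that BMD alone was high. Pdk4 was named above, and Pfkfb1, which sets fructose-2,6-bisphosphate, had 85.6, 165 and 49.4 CPM, Nit2, an amidase, 26.9, 59.1 and 17.8, and Irak2, a kinase of innate signalling, 69.2, 84.5 and 27.7. Slit3, a guidance ligand, had 33.7, 33.1 and 4.94 CPM, the last from 5 UMIs.

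The third comparison set low-natriuretic against natriuretic-rich nuclei within each library, which compares nuclei of the same library but uses the contrast that the selection made, so it is given as a description. The estimated share of free RNA was 4.86% (WT), 6.15% (BMD) and 6.67% (DMD) in low-natriuretic nuclei. In natriuretic-rich nuclei it was lower, at 3.15%, 4.73% and 5.71%. Scrublet called 7.53%, 5.66% and 9.96% of low-natriuretic nuclei doublets, barcodes holding more than 1 nucleus. Of natriuretic-rich nuclei it called 4.59%, 3.96% and 7.17%. The part of these differences in the ratios was not tested. Over 7378 genes with at least 200 UMIs in all cardiomyocyte nuclei, 1.40% were higher and 2.53% lower in low-natriuretic nuclei of WT by 1.5-fold, 0.949% and 3.17% in BMD, and 1.73% and 2.70% in DMD. In all 3 libraries 5 genes were higher (0.0678%) and 11 lower (0.149%).

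Angpt1, the ligand of the endothelial receptor Tie2, was higher in low-natriuretic nuclei of each library. It had 1114 CPM (WT), 1298 (BMD) and 712 (DMD), against 489, 511 and 455 in natriuretic-rich nuclei. Each low-natriuretic sum was above all 3 natriuretic-rich ones. The log2 ratios of Angpt1 were 1.19, 1.34 and 0.65. Lrrc7, a synaptic scaffold protein, had 102, 99.8 and 160.0 CPM against 28.7, 44.9 and 78.8, and Ccdc85a, a coiled-coil protein, had 417, 339 and 606 against 132, 117 and 355. Mctp1, Zfp385d, Dgkb, Ptgfrn, Smim5, Ebf1 and Gabrb2 followed with log2 ratios of 0.58 to 1.38 over the 3 libraries. The direction turned for Smim5 in DMD after thinning (-0.78) and in BMD with counts from the combined file (-0.0038), and for Ebf1 in DMD without the nuclei that Scrublet called doublets, barcodes holding more than 1 nucleus (-0.0619). Ebf1 is also a gene of fibroblasts and fat cell precursors, and its 5 highest nuclei held 54 of 310 UMIs in WT, 56 of 109 in BMD and 56 of 105 in DMD. Myh6 was higher in low-natriuretic nuclei of each library, with log2 ratios of 0.65 (WT), 0.70 (BMD) and 0.42 (DMD), and so was Tmem65, with 0.27, 0.27 and 0.28. The log2 ratio of Myh7 was -0.15, -0.12 and -0.02.

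Lower in low-natriuretic nuclei of each library were Tgfb2, with log2 ratios of -1.42 (WT), -0.83 (BMD) and -0.75 (DMD), and Hspb7, a small heat shock protein of heart muscle, with -0.90, -0.87 and -0.66. Hamp, the iron hormone hepcidin, had 16.1, 22.4 and 11.8 CPM against 37.7, 53.6 and 28.6. Few low-natriuretic nuclei carried it. The 5 highest held 35 of 69 UMIs in WT and 29 of 38 in BMD, and 4 nuclei held all 12 in DMD. Ildr2, Htr4, Ankrd23, Prss23, Rnd1, Tubb4b and Hsp90aa1 completed the 10 lowest at under 30 CPM in the low-natriuretic nuclei of every library, with log2 ratios of -0.82 or below. After thinning to 2000 UMIs the direction turned for Htr4 (0.92) and Hamp (0.29) in DMD and for Prss23 in BMD (0.17) and DMD (0.25). The list of cell stress and fetal genes had a median log2 ratio of -0.73 (WT), -0.56 (BMD) and -0.27 (DMD), with 15, 10 and 3 of its 25 measured genes lower (2.53%, 3.17% and 2.70% of all genes), while the median of all genes was -0.03, -0.02 and 0.00. The distance of this list from all genes was thus largest in WT and smallest in DMD, a difference between libraries that was not tested. The medians of the other 11 lists lay between -0.15 and 0.17.

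**Figure D4:**
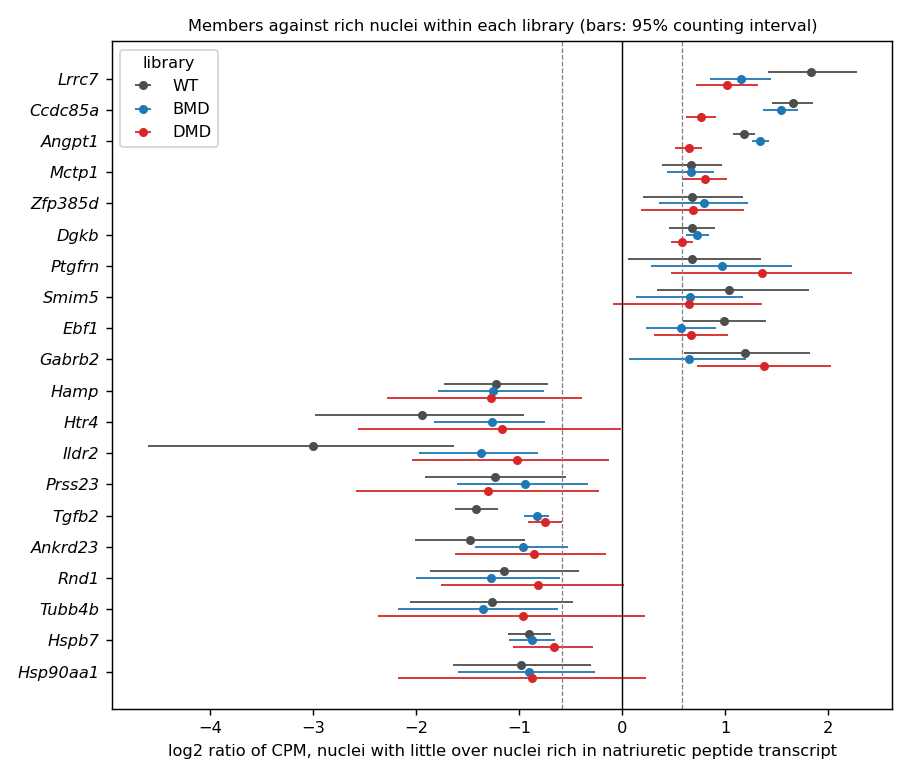
Log2 ratio of CPM in low-natriuretic over natriuretic-rich nuclei (horizontal axis) for the 10 highest and 10 lowest genes (rows) in the WT, BMD and DMD libraries, with 95% counting intervals and dashed lines at 1.5-fold. Angpt1 had ratios of 1.19, 1.34 and 0.65 and Tgfb2 of -1.42, -0.83 and -0.75.

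Finer classes of natriuretic share showed how the levels ran across the limit. In WT, Acta1 had 16.6 CPM in nuclei with 0 natriuretic UMIs, 22.7 in the other low-natriuretic nuclei, 42.4 from 0.05% to 0.2% and 120 at 0.2% or more. In BMD the same classes had 159, 169, 180 and 363 CPM, and in DMD 202, 193, 211 and 287. The WT level went up over each class, while the mutants were level up to 0.2%. Nuclei with 0 natriuretic UMIs in the mutants thus had at least the Acta1 level of the highest natriuretic class in WT, with intervals that overlapped it (131 to 191 CPM in BMD and 164 to 247 in DMD, against 85.1 to 165 in WT).

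Ankrd1 had 2945, 3512, 4764 and 7691 CPM in WT, 5603, 5445, 6146 and 9372 in BMD, and 5915, 5806, 6441 and 8160 in DMD, so that mutant nuclei with 0 natriuretic UMIs lay below the highest WT class. Ccn2 had 48.6, 55.3, 108 and 307 CPM in WT, 284, 295, 369 and 804 in BMD, and 283, 394, 391 and 582 in DMD. Myh6 went down over the classes of every library, from 2929 to 1371 CPM in WT, from 2090 to 876 in BMD and from 3110 to 2150 in DMD. Angpt1 did so too, from 1196 to 291, from 1759 to 374 and from 756 to 325 CPM. Tmem65 went from 509 to 332, from 325 to 217 and from 287 to 233 CPM, and the mutant nuclei with 0 natriuretic UMIs had intervals (285 to 369 CPM in BMD and 241 to 339 in DMD) that overlapped the highest WT class (272 to 402). Gja1 stayed between 632 and 749 CPM in all 12 classes. The highest natriuretic class of WT held only 78 nuclei, and the classes differ in depth, since a nucleus with few UMIs more often shows 0 of them.

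**Figure D5:**
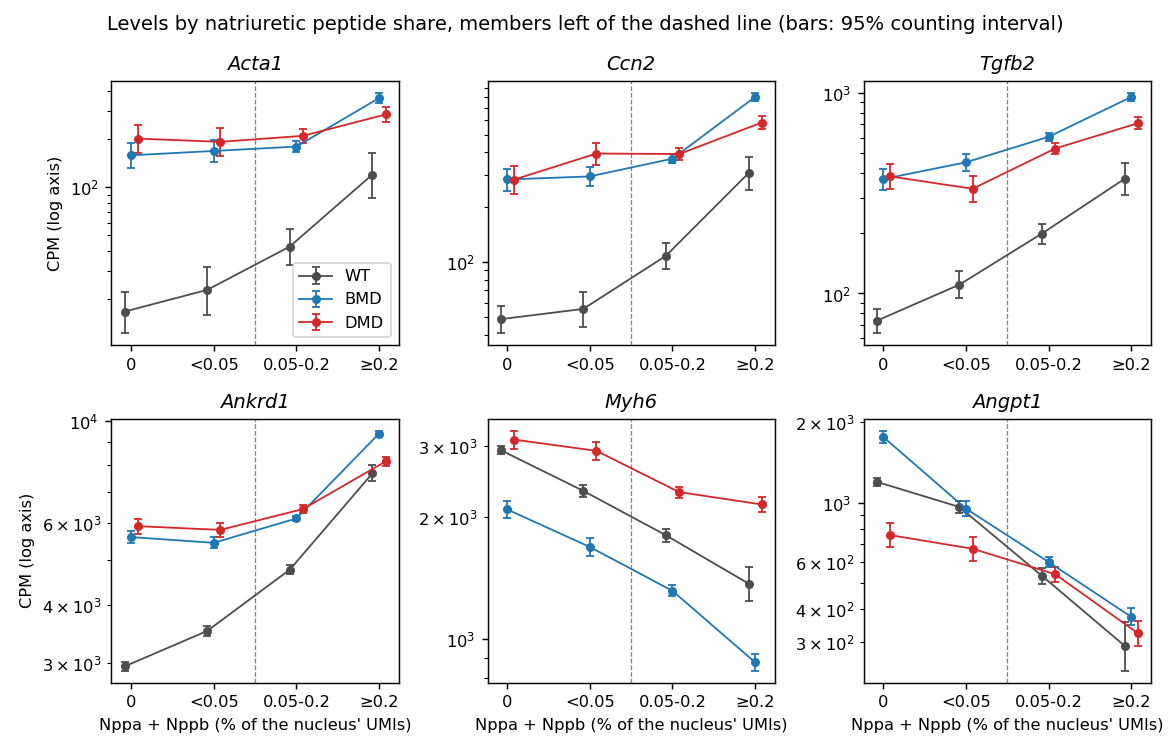
Level of 6 genes (vertical axis, CPM, log scale) in 4 classes of natriuretic share (horizontal axis, percent of UMIs) in the WT, BMD and DMD libraries, with 95% Poisson intervals, low-natriuretic nuclei to the left of the dashed line. Acta1 in nuclei with 0 natriuretic UMIs was 16.6 CPM (WT), 159 (BMD) and 202 (DMD), while Myh6 went down over the classes in every library.

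The low-natriuretic nuclei also varied among themselves. After thinning to 2000 UMIs, the median over 4676 genes of the variance divided by the mean was 1.07 (WT), 1.09 (BMD) and 1.07 (DMD), close to the value of 1 that random sampling of molecules gives. Genes were ranked by the lowest of their ratios in the 3 libraries. The top ones were mitochondrial (Mt-co3, Mt-co1, Mt-co2 and Mt-atp6), Myh6, Ankrd1, Dmd, Xirp2, Angpt1 and Maoa, a monoamine oxidase. Myh6 had a ratio of 5.18 (WT), 6.98 (BMD) and 4.79 (DMD) and a UMI in 79.0%, 60.1% and 81.3% of thinned nuclei, so that it was missing from more nuclei in BMD than in the other libraries. Xirp2 had ratios of 3.83, 14.1 and 10.0, and 1 BMD nucleus held 344 of its 3478 UMIs before thinning. Maoa had 263, 882 and 564 CPM, with a UMI in 22.0%, 51.5% and 41.5% of thinned nuclei. Free RNA held Maoa at 210, 453 and 248 CPM, in the same library order, and its part in these shares was not tested. The mitochondrial ratios of WT, 55.3 for Mt-co3 and 78.7 for Mt-co1, were far above those of BMD (8.37 and 9.19) and DMD (8.25 and 7.27), and 1 WT nucleus held 326 of the 2663 Mt-co3 UMIs.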

How the data were processed

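Single-nucleus libraries were made by the study with a 10x Genomics 3′ v3.1 kit (its results text names a 5′ technology), 1 each for WT, BMD and DMD. The authors counted reads with Cell Ranger on rn6 and deposited raw UMI counts of all barcodes. File headers name version 6.0.1 for an aggregate of the 3 libraries and 4 for BMD and DMD. WT counts came from the WT barcodes of the aggregate, the others from their own files. Nuclei were the barcodes with most UMIs, 9964 (WT), 6810 (BMD) and 7890 (DMD). The members of the selection and the gene lists were chosen with earlier results of these data known. Genes of the selection were left out of the counts of genes past 1.5-fold. UMIs were summed per library, scaled to 1000000 and compared as log2 ratios with exact intervals (Python 3.11.15, scipy 1.17.1); 12 lists were used. No doublet or mitochondrial filter was applied. Scrublet (scanpy 1.11.5) called 7.53% of the WT, 5.66% of the BMD and 9.96% of the DMD low-natriuretic nuclei doublets. Named genes were 8 of interest, the 10 highest and lowest by the ratio nearer 0 of both mutants, 6 each way for DMD over BMD, 10 each way within libraries, the 10 most variable, and up to 4 per list with those of most UMIs. Free RNA was taken from barcodes with at most 50 UMIs, and TMM factors from edgeR 4.0.16. The calculation was tested on simulated data. List genes without a symbol in the files were not analysed here. The values of 1 list gene are not reported here. Alternatives were other limits on natriuretic share, UMIs and cardiomyocyte genes, thinning, left-out nuclei, aggregate counts, means over nuclei, TMM, free RNA subtraction, other gene filters and 1 CPM added.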

Additional observations from a re-analysis of the deposited data

Results flagged for a closer look

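Without the 5 CPM added to each side, Pros1, Pfkfb1, Ap1s3 and Iqca differed from WT by at least 1.5-fold in both mutant libraries. The directions in the 2 libraries were opposite, with both counting intervals off 0. The log2 ratio over WT in low-natriuretic nuclei was 2.27 in BMD and -0.74 in DMD for Pros1, 0.95 and -0.79 for Pfkfb1, -1.18 and 1.34 for Ap1s3, and -1.13 and 0.61 for Iqca. In low-natriuretic over natriuretic-rich nuclei, C7 had a log2 ratio of -1.11 in WT and 1.60 in DMD, the latter with 47 of 90 UMIs in 1 nucleus. With 1 library per genotype, none of these differences was tested.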

How the results depend on the processing

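The shares of low-natriuretic nuclei kept their order, with WT above both mutants, under each alternative run, and 17 of 27 alternative shares stayed within the interval of the first value. They were 57.2% (WT), 17.5% (BMD) and 16.9% (DMD) at a limit of 0.025%, 85.1%, 44.7% and 44.3% at 0.1%, and 60.4%, 22.1% and 21.0% after thinning, and 30.6% in BMD with the counts of the aggregate. Of 312 alternative list medians, 311 stayed within the interval of the list's first median, and calcium handling in BMD over WT was 0.18 with TMM factors, just above its interval. Acta1 over WT ranged from 2.94 to 3.66 in BMD and from 3.22 to 3.87 in DMD, and Tmem65 from -0.73 to -0.60 and from -0.97 to -0.69. Of 172 ratios of named genes of at least 1.5-fold, 165 kept their sign under every alternative that gave a value. The others were low-natriuretic over natriuretic-rich ratios. After thinning, Hamp was 0.29, Htr4 0.92, Prss23 0.25 and Smim5 -0.78 in DMD, and Prss23 was 0.17 in BMD. Smim5 was -0.0038 in BMD with aggregate counts, and Ebf1 was -0.0619 in DMD without Scrublet doublets. Subtraction of free RNA left no value for Nppa, Fth1, C7 and, in BMD, Rpl35.

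Counts of genes past 1.5-fold moved by over 1.5 times mostly with depth or filter, which change how many genes are compared. In BMD over WT, 181 were lower among nuclei of at least 4000 UMIs (277 at first). After thinning, 114 were higher and 158 lower in BMD over WT, 272 lower in DMD over WT and 104 higher in DMD over BMD, and in WT low-natriuretic over natriuretic-rich nuclei 57 were higher and 73 lower. With at least 100 UMIs a gene, 454 were lower in BMD over WT, 396 higher in DMD over WT, and 381 higher and 317 lower in DMD over BMD, and within libraries 192 were higher in WT, 106 higher and 359 lower in BMD, and 233 higher and 341 lower in DMD. With at least 500, 101 were higher and 105 lower in BMD over WT, 143 and 213 in DMD over WT, 63 and 95 in DMD over BMD, and within libraries 35 and 85 in WT, 29 and 85 in BMD and 41 and 47 in DMD. With 1 CPM added, those within libraries were 160 and 300 in WT, 117 and 356 in BMD and 208 and 333 in DMD. At the limit of 0.025% they were 123 lower in WT, 112 higher in BMD, and 197 higher and 359 lower in DMD. At 0.1% they were 266 higher and 375 lower in WT and 130 lower in DMD, and with aggregate counts 120 higher in BMD. The cause of these shifts was not tested. No paired analysis was possible because each genotype had 1 library.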

Other observations

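In DMD over BMD low-natriuretic nuclei, the potassium, sodium and pacemaker channel list had a median log2 ratio of -0.33 against 0.00 for all genes, with 5 of its 18 measured genes lower and 1 higher by 1.5-fold (3.78% and 3.58% of all genes). The values of 4 of the 5 are given. The genes given here were named after their values were seen. Kcnk3, a background potassium channel, had 123 CPM (WT), 145 (BMD) and 89.9 (DMD), and Fgf12, a modulator of sodium channels, had 1362, 2080 and 1249. Kcnj11 and Abcc9, the pore and regulatory subunits of an ATP-sensitive potassium channel, had 32.7, 27.8 and 13.8 CPM and 945, 949 and 608 CPM, so that DMD was the lowest library for both subunits. Hcn4, a pacemaker channel, was the member that was higher in DMD than in BMD, at 63.8, 37.8 and 70.1 CPM. Among genes of fatty acid use, 3 of 33 were lower in DMD than in BMD and 0 higher, against the same 3.78% and 3.58% of all genes. Besides Pdk4 these were Acsl1, which activates long-chain fatty acids, at 577, 492 and 285 CPM, and the transporter Slc27a1 at 55.0, 36.0 and 14.8 CPM.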
